A study of Arabidopsis thaliana with 8 samples.

Results

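AT3G48640 and AT1G57630 are 2 nuclear genes of Arabidopsis thaliana whose leaf transcripts were more abundant in the abh1 mutant than in the Columbia wild type (Col-0) and differed between the replicate numbers of the arrays. They were chosen for those 2 differences, so both are given here as descriptions with no test. Each gene had 1 probe set, and these are 2 of 22810 probe sets on the array and 2 of the 13350 genes that the annotation pairs with a probe set of their own. AT1G57630, on chromosome 1, encodes a TIR domain protein. AT3G48640, on chromosome 3, is listed as protein coding with no gene name, and no role is given to it here.

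The study sprayed plants aged 4 weeks and collected green tissue, labelled as leaves, 4 h later. The groups were Col-0 mock (water), Col-0 ABA (water with 50 µM abscisic acid), abh1 mock and abh1 ABA, with 2 arrays in each, numbered 1 and 2 in the labels. Every array received RNA pooled from 3 biological replicates, so it is a mean over plants, and the labels do not say which abh1 allele was used.

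ABH1 is the larger protein of the complex that, in the nucleus, holds the cap of newly made messenger RNAs and that assists their splicing and the processing of microRNA precursors, and abh1 plants are known for a heightened response to ABA. ABA is the hormone with which plants answer drought, and it also acts on immune signalling in leaves. TIR domains are best known in plants from intracellular immune receptors that trigger defence through the EDS1 proteins. Genes that encode little more than a TIR domain also exist in Arabidopsis.

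The arrays numbered 1 had a lower median signal (130.7 to 160.5) and 10th percentile (6.80 to 7.94) than those numbered 2 (179.5 to 215.8 and 11.48 to 12.69). Their trimmed means were the same to within rounding (500.04 to 500.05 over all 8 arrays). No probe set is paired with ABH1 or with its partner CBP20 alone in the annotation used, so the mutation could not be checked from the signal and is not analysed here. Of the leaf markers, RCA and PRK, both enzymes of photosynthetic carbon fixation, were measured, and their lowest signals on any array were 13882 and 6992. The root marker EXPA7 reached 117.7 at most and the flower marker AT5G07230 reached 60.2. The other 7 leaf, 4 root and 4 flower markers had no probe set named here.

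AT3G48640 was at a low signal in wild type and a high one in abh1. Its signal in Col-0 mock was 107.8 on replicate 1 and 53.02 on replicate 2, and in Col-0 ABA it was 164.7 and 90.70. In abh1 mock it was 2364 and 597.6, and in abh1 ABA it was 1768 and 449.4. The 4 abh1 arrays lay above the 4 Col-0 arrays without overlap, a pattern that 1.90% of the 13652 probe sets kept for testing also showed. The group means were 80.4 ± 38.7 (SD, n = 2) in Col-0 mock, 128 ± 52.4 in Col-0 ABA, 1481 ± 1249 in abh1 mock and 1109 ± 932 in abh1 ABA. Within each genotype the mock and ABA means were closer together than the SD of the higher of them, but those SDs include the difference between replicate numbers, and within both numbers ABA lay above mock in Col-0 and below it in abh1. The place of the probe set among all others shifted likewise, from above 22.7% to 54.9% of them on the Col-0 arrays to above 71.0% to 93.5% on the abh1 arrays. In leaf tissue as a whole, more transcript per cell and more cells that make it cannot be told apart.

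AT1G57630 showed the same order of groups, with more overlap. Its signal in Col-0 mock was 162.9 on replicate 1 and 26.33 on replicate 2, and in Col-0 ABA it was 336.8 and 113.9. In abh1 mock it was 894.4 and 179.9, and in abh1 ABA it was 625.2 and 172.8. Here the genotypes overlapped, since Col-0 ABA replicate 1 lay above both abh1 arrays numbered 2. Among arrays of the same treatment and number, abh1 was above Col-0 in all 4 pairs for AT1G57630 and for AT3G48640, as it was for 11.0% of all probe sets kept. The means were 94.6 ± 96.6 (SD, n = 2) in Col-0 mock, 225 ± 158 in Col-0 ABA, 537 ± 505 in abh1 mock and 399 ± 320 in abh1 ABA, and no neighbouring means in that order were further apart than the SD of the higher group, which includes the difference between replicate numbers. On Col-0 mock replicate 2 the flower marker AT5G07230 read 60.2 and the root marker EXPA7 117.7, above both AT1G57630 (26.33) and AT3G48640 (53.02). On Col-0 ABA replicate 2 EXPA7 read 115.2, above both AT1G57630 (113.9) and AT3G48640 (90.70), while AT5G07230 read 5.557. No detection call was used here, so neither gene is shown to be above background on either array. Differences taken against these arrays are not exact.

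**Figure D1:**
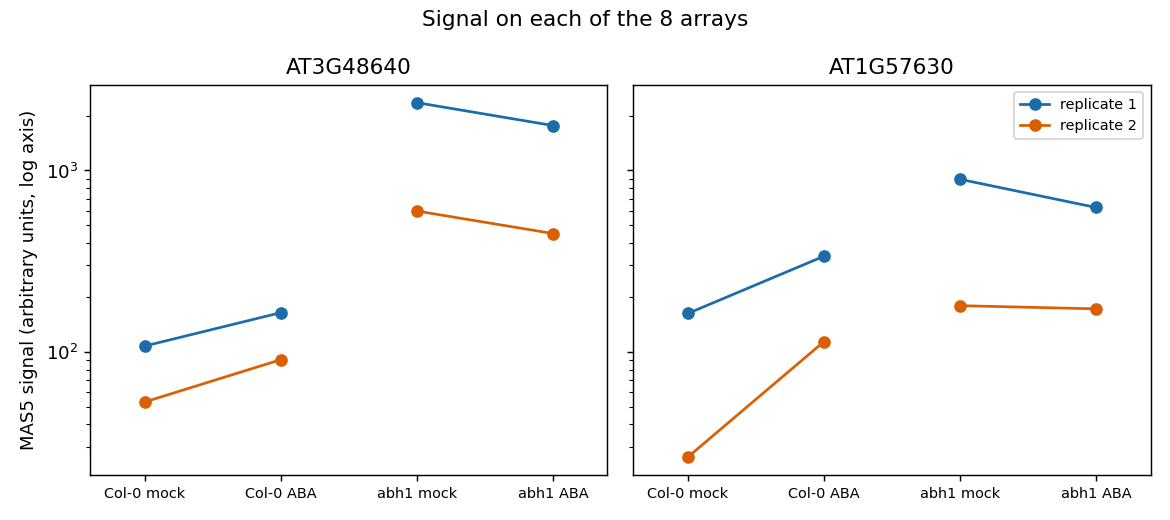
MAS5 signal (log axis) of AT3G48640 and AT1G57630 on each of the 8 arrays, with 1 point per array, the 4 groups along the horizontal axis and lines joining mock and ABA of the same genotype and replicate number. AT3G48640 runs from 53.02 to 164.7 in Col-0 and from 449.4 to 2364 in abh1, and in both genes every array numbered 1 lies above the array numbered 2 of its group.

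The size of the abh1 difference was read within each replicate number as log2 of signal plus an offset of 9.38, which understates changes of low signals. For AT3G48640 it was 4.34 in replicate 1 and 3.28 in replicate 2 in mock, and 3.35 and 2.20 in ABA. Mock arrays of AT1G57630 gave 2.39 and 2.41, the second against the signal of 26.33, and ABA arrays gave 0.87 and 0.56. Averaged over treatments, AT3G48640 was 9.80-fold higher in abh1 (log2 3.29 ± 0.57, SE) and AT1G57630 was 2.95-fold higher (log2 1.56 ± 0.74). Without Col-0 mock replicate 2 these differences were log2 3.07 and 0.99. With the replicate number as a block in the fit, the same differences had SEs of 0.24 and 0.20. The rule used this contrast, and 0 of 13652 probe sets were called higher in abh1 without the block (642 had an unadjusted p under 0.05 in either direction) and 31, or 0.227%, with it.

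On replicate 1 the abh1 difference of both genes was larger in mock than in ABA. By signal, AT3G48640 was 21.9 times as high in abh1 mock as in Col-0 mock there and 10.7 times as high in ABA, and AT1G57630 was 5.49 times as high in mock and 1.86 times as high in ABA. On replicate 2 the ratios in ABA were 4.96 and 1.52, taken against Col-0 signals that are not shown to be above background. None is given for mock because of the low Col-0 signals of both genes. The shares that follow need the pattern in both replicate numbers, not on replicate 1 alone. Of all probe sets kept, 15.7% had a value of abh1 minus Col-0, with its sign, that was higher in mock in both replicate numbers. So did 65.5% of the 29 others called higher in abh1 with the block, which were called on these same arrays. For probe sets called lower in abh1 this count does not measure a larger difference in mock, so none is set beside it.

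The response to ABA, when averaged over genotypes, is the measure that the choice of these genes did not use. Averaged over genotypes it was small for AT3G48640, at log2 0.11 ± 0.57 (SE), with a 95% interval of -1.21 to 1.43. For AT1G57630 it was 0.56 ± 0.74, with an interval of -1.15 to 2.26. Neither passed limma's test, with adjusted p = 0.966 and 0.836, and 0.819 and 0.177 with the replicate block. The call rate over all probe sets was 0.110% without the block and 2.31% with it. With the block the interval for AT1G57630 narrowed to 0.10 to 1.02 and its unadjusted p was 0.0236.

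That average combined opposite signs. The ABA difference within each genotype shares its mock arrays with the abh1 difference in mock, so it is not free of the choice of the genes. In wild type, the signal of both transcripts was higher in ABA than in mock in each replicate number. AT3G48640 differed by log2 0.57 and 0.68, and AT1G57630 by 1.01 and 1.79, the last against the signal of 26.33. On replicate 2 neither gene is shown to be above background in Col-0, in mock or in ABA. In abh1, ABA-treated leaves had less of both transcripts: AT3G48640 differed by -0.42 and -0.40, and AT1G57630 by -0.51 and -0.055. The last of these is a signal of 172.8 against 179.9. After quantile normalization and after median centring of the arrays that difference became 0.21 and 0.20, while the other 7 kept their sign. Of all probe sets kept, 1.84% were higher in ABA in both Col-0 pairs and lower in both abh1 pairs.

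The difference between the ABA responses of the genotypes was tested as an interaction. It was -1.04 ± 1.14 (SE) for AT3G48640, with a 95% interval of -3.67 to 1.60, and -1.68 ± 1.47 for AT1G57630, with an interval of -5.09 to 1.73. With the block the intervals were -2.17 to 0.10 and -2.60 to -0.76. Without Col-0 mock replicate 2 the values were -0.58 ± 1.29 and -0.54 ± 1.45. By limma the adjusted p was 1 for each gene, without and with the block. The unadjusted p was 0.389 for AT3G48640 and 0.288 for AT1G57630, and 0.0678 and 0.00304 with the block. No probe set of 13652 was called in this comparison without or with the block (0%), and 38 had an unadjusted p under 0.05 without it and 248 with it. The interaction uses the mock arrays in which both genes also stood out for their abh1 difference (log2 3.81 for AT3G48640 and 2.40 for AT1G57630). Its values are therefore not free of the choice of the genes.

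**Figure D2:**
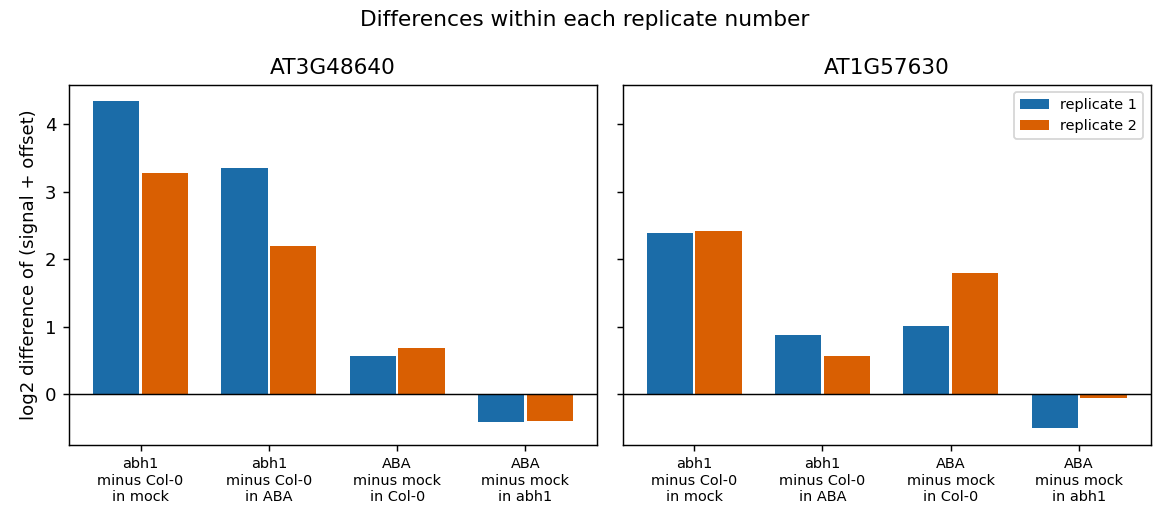
Log2 differences of (signal + offset) of AT3G48640 and AT1G57630 within each replicate number, as bars from 0, for abh1 minus Col-0 in mock and in ABA and for ABA minus mock in Col-0 and in abh1. The ABA bars point up in Col-0 (0.57 to 1.79, the highest against a signal of 26.33) and down in abh1 (-0.51 to -0.055).

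The arrays numbered 1 had more of both transcripts in every group. The signal on replicate 1 over that on replicate 2 was 1.82 in Col-0 ABA, 3.96 in abh1 mock and 3.93 in abh1 ABA for AT3G48640. For AT1G57630 it was 2.96, 4.97 and 3.62, and no ratio is given for Col-0 mock. The Col-0 ABA ratios rest on replicate 2 signals that are not shown to be above background. On the log2 scale the mean difference over the 4 groups was 1.41 for AT3G48640 and 1.95 for AT1G57630, and 0.388% and 0.110% of probe sets kept had a difference as high. These means and shares include Col-0 mock (log2 0.91 and 2.27), where the replicate 2 signals are low, so they are not exact. The median over all probe sets was -0.18, in the other direction. The labels do not say what the number stands for, so growth, treatment day and array handling cannot be told apart.

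**Figure D3:**
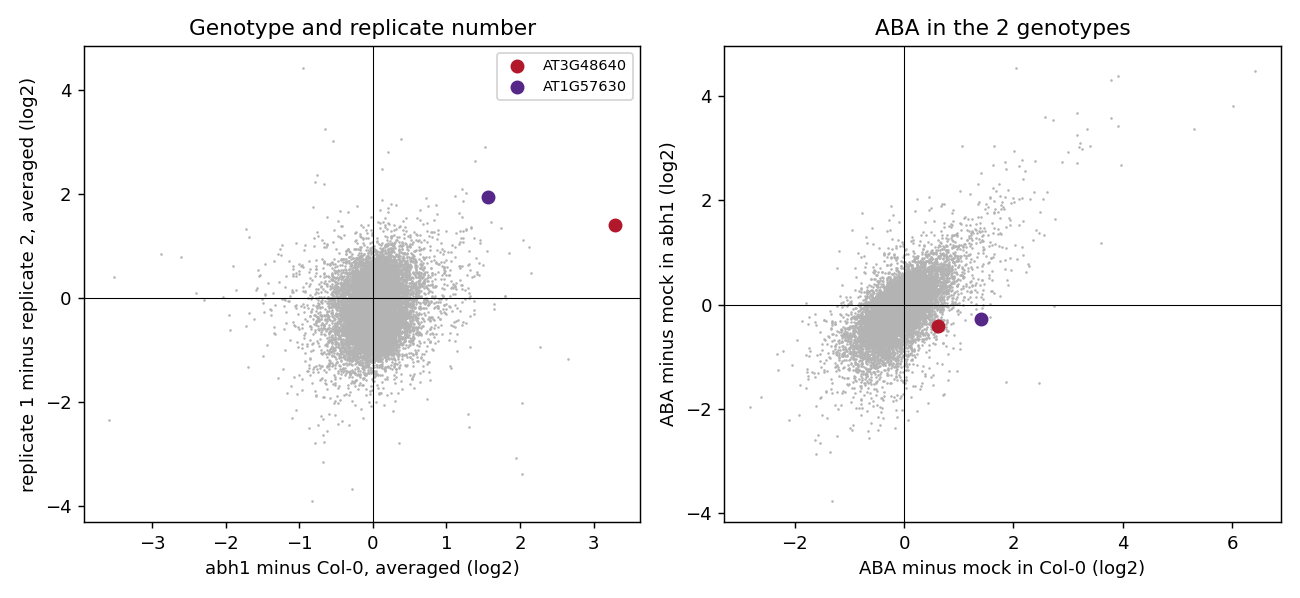
Each grey point is 1 of the 13652 probe sets kept, with AT3G48640 in red and AT1G57630 in purple, all values as log2 differences. The left panel sets the averaged abh1 difference against replicate 1 minus replicate 2, where the 2 genes lie at 3.29 and 1.41 and at 1.56 and 1.95. The right panel sets the ABA difference in Col-0 against that in abh1, where both lie right of 0 and below 0.

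The 2 transcripts varied together over the arrays. Pearson's r of their log2 signals was 0.848 over the 8 arrays, and 0.947 over the 4 numbered 1 and 0.860 over the 4 numbered 2. Within arrays of the same number and genotype, the pairs of mock and ABA arrays gave 0.903. These arrays share the genotype and replicate differences for which the genes were chosen, so r is a description. AT1G57630 ranked 99 by likeness to AT3G48640 among the 7407 other probe sets kept that have 1 gene, and AT3G48640 ranked 178 by likeness to AT1G57630.

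The 10 genes most like AT3G48640, by r over the 8 arrays (0.951 to 0.983), were AT3G54120, AT5G39670, AT1G72060, AT1G55210, AT1G15790, AT4G19670, MSRB9, IDH-V, AT3G60540 and AT2G43590. MSRB9 is a methionine sulfoxide reductase, which repairs oxidised proteins, and IDH-V is an isocitrate dehydrogenase of the citric acid cycle. All 10 were higher in abh1 in each of the 4 pairs, as were 11.0% of all probe sets kept, by smaller factors than AT3G48640, from 1.32-fold to 2.84-fold averaged over treatments. AT5G39670, the second on this list, had signals of 543.1 and 425.9 in Col-0 mock, 614.5 and 645.0 in Col-0 ABA, 2527 and 1142 in abh1 mock and 2089 and 865.7 in abh1 ABA, on replicates 1 and 2. ABA lay above mock in Col-0 and below it in abh1 for this gene as well. By limma 0 of the 10 passed for abh1 without the block and 3 did with it, MSRB9, AT3G60540 and AT2G43590, beside 0.0146% and 0.513% of all probe sets. Likeness is defined on the same arrays, so these counts are no separate evidence.

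The 10 most like AT1G57630 (r of 0.952 to 0.976) were AT5G18310, AT1G62422, AT3G60420, AT3G13950, AT5G62950, AT4G20830, AT5G46230, AT3G28940, AT2G18740 and AT4G36500. None of them is on the list for AT3G48640. In these genes other than AT5G46230, replicate 1 exceeded replicate 2 by log2 0.43 to 1.31, and the abh1 difference was log2 0.26 to 1.26. AT5G46230 had the widest range over the arrays, with 201.3 and 8.896 in Col-0 mock, 330.6 and 52.41 in Col-0 ABA, 655.1 and 97.76 in abh1 mock and 783.4 and 86.48 in abh1 ABA. It was higher in Col-0 ABA than in Col-0 mock on both numbers. The signal of 8.896 was lower than 12.23, the 10th percentile of Col-0 mock replicate 2, so no difference is given for this gene.

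**Figure D4:**
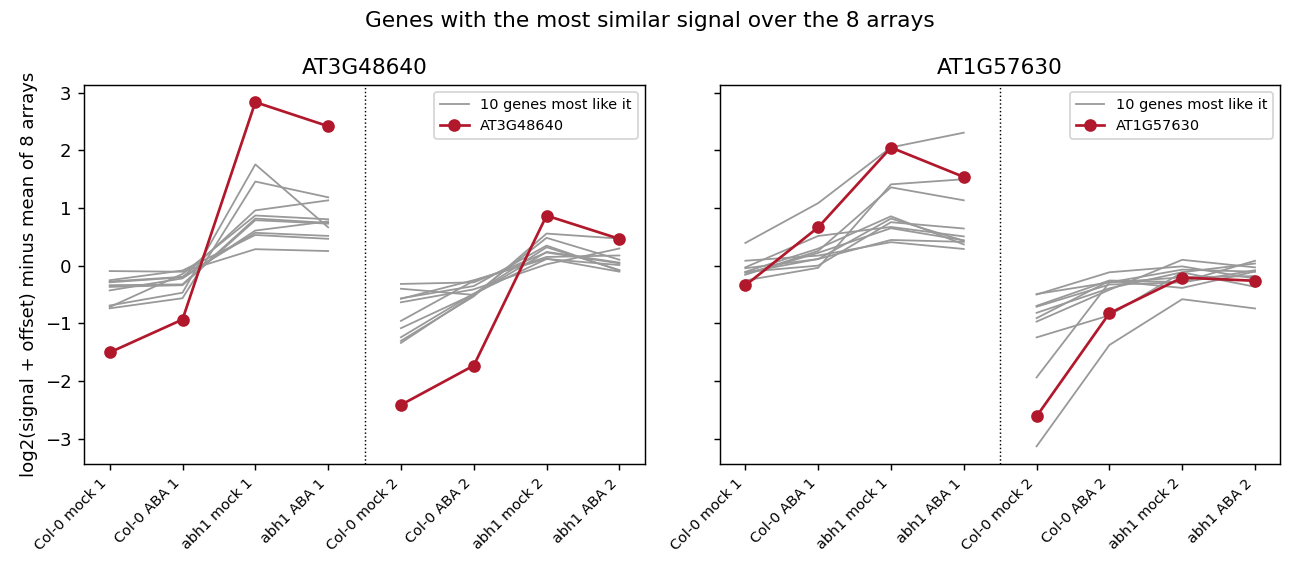
Log2(signal + offset) minus its mean over the 8 arrays, for AT3G48640 and AT1G57630 (red) and the 10 genes most like each (grey), with arrays numbered 1 left and arrays numbered 2 right of the dotted line. The abh1 arrays stand above the Col-0 arrays of the same treatment and number in all 10 grey lines on the left panel and in 8 of 10 on the right panel, against 11.0% of all probe sets kept.

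Other genes for TIR domain proteins lay on both sides of 0. Of 35 genes on a list written by locus code, 16 had a probe set of their own and 10 passed the signal filter. In abh1 5 of these 10 were higher and 5 lower, with a median of log2 0.025 against 0.021 over all probe sets, and limma called 0 without or with the block (1, AT1G72920, had an unadjusted p under 0.05). The background call rate of this comparison is 0.0146% without the block and 0.513% with it. The 4 with the smallest p were AT1G72920 at log2 -0.94 ± 0.28 (SE), AT1G72940 at -0.56 ± 0.29, AT1G72900 at 0.19 ± 0.41 and AT1G57830 at -0.13 ± 0.33. AT1G72920 had signals of 424.7 and 329.0 in Col-0 mock and 346.8 and 708.3 in Col-0 ABA, against 305.7 and 231.7 in abh1 mock and 152.6 and 214.0 in abh1 ABA. Its average difference was opposite in sign to that of AT1G57630, at limma adjusted p = 0.757 and 0.208 with the block. In the interaction 8 of the 10 had a negative value, while 54.4% of all probe sets had a positive one. The replicate numbers did not share this sign in all of them. On replicate 1 AT1G72900, AT1G66090, AT3G04210 and AT4G12010 fell more with ABA in Col-0 than in abh1, a positive value. AT1G72900 went from 489.5 to 233.6 in Col-0 and from 739.7 to 386.4 in abh1 there. CSA1, AT1G72920, AT1G72940 and AT3G04220 were negative on replicate 1 too. The median was -0.24 against 0.034 over all probe sets. Limma called 0 of the 10, with 0 at an unadjusted p under 0.05, and 0% of all probe sets.

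Defence markers were thinly covered. Of 37 genes of salicylic acid defence 4 had a probe set and 3 passed the filter. All 3 were higher in abh1, as were 53.7% of all probe sets. Limma called 0 without or with the block (1, GRX480, had an unadjusted p under 0.05). For this and the next 2 lists, the call rate over all probe sets was 0.0146% without the block and 0.513% with it. GRX480, a glutaredoxin induced by salicylic acid, had 410.8 and 217.1 in Col-0 mock, 379.3 and 654.2 in Col-0 ABA, 1599 and 614.1 in abh1 mock and 1086 and 601.1 in abh1 ABA. Its abh1 difference was log2 1.19 ± 0.39 (SE), at limma adjusted p = 0.869 and 0.202 with the block, and Col-0 ABA replicate 2 lay above both abh1 arrays of that number. SAG101, a partner of EDS1, was at log2 0.15 ± 0.30, and ECS1 was at 0.19 ± 0.14. Of 20 genes of pattern-triggered immunity 3 passed the filter and limma called 0, with 0 at an unadjusted p under 0.05: the transcription factors WRKY53 (log2 0.31 ± 0.29) and WRKY22 (0.27 ± 0.44) and the kinase BIK1 (-0.044 ± 0.20). Of 15 genes of jasmonate and ethylene defence 1 passed the filter, the thionin THI2.1, which was not called, at -0.17 ± 0.36. The medians of the 3 salicylic acid and the 3 pattern-triggered genes were 0.19 and 0.27, beside 0.021 over all probe sets.

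Of the 20 genes nearest to the 2 on their chromosomes, 7 had a probe set of their own and 4 of these passed the signal filter. For abh1 limma called 0 of the 4 without or with the block, with 0 at an unadjusted p under 0.05, beside 0.0146% and 0.513% of all probe sets called. The gene that follows AT3G48640, the transcribed pseudogene AT3G48650, had signals of 152.0 and 36.27 in Col-0 mock, 78.02 and 209.2 in Col-0 ABA, 256.1 and 144.6 in abh1 mock and 87.44 and 77.50 in abh1 ABA. Its groups overlapped, and the abh1 difference was log2 0.32 ± 0.51 (SE), with limma adjusted p = 1 and 0.876 with the block. Of the other 9 nearest genes 1 more, AT3G48600, had a probe set of its own, and its mean of 104 was below the filter. Next to AT1G57630, AT1G57620 was at log2 -0.21 ± 0.19, AT1G57600 at 0.018 ± 0.22 and AT1G57590 at -0.17 ± 0.35, each at adjusted p = 1 for abh1. The TIR domain genes AT1G57650 and AT1G57670, which lie on the other side, had mean signals of 7.04 and 89.6, below the filter of 115.4. AT1G57590 was higher in ABA in all 4 pairs, with 413.2 and 356.5 in Col-0 mock against 2266 and 806.3 in Col-0 ABA, and 234.9 and 429.3 in abh1 mock against 1440 and 1130 in abh1 ABA. Its ABA effect averaged over genotypes was log2 1.88 ± 0.35, with limma adjusted p = 0.112, and it passed with the block at 0.0316.

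**Figure D5:**
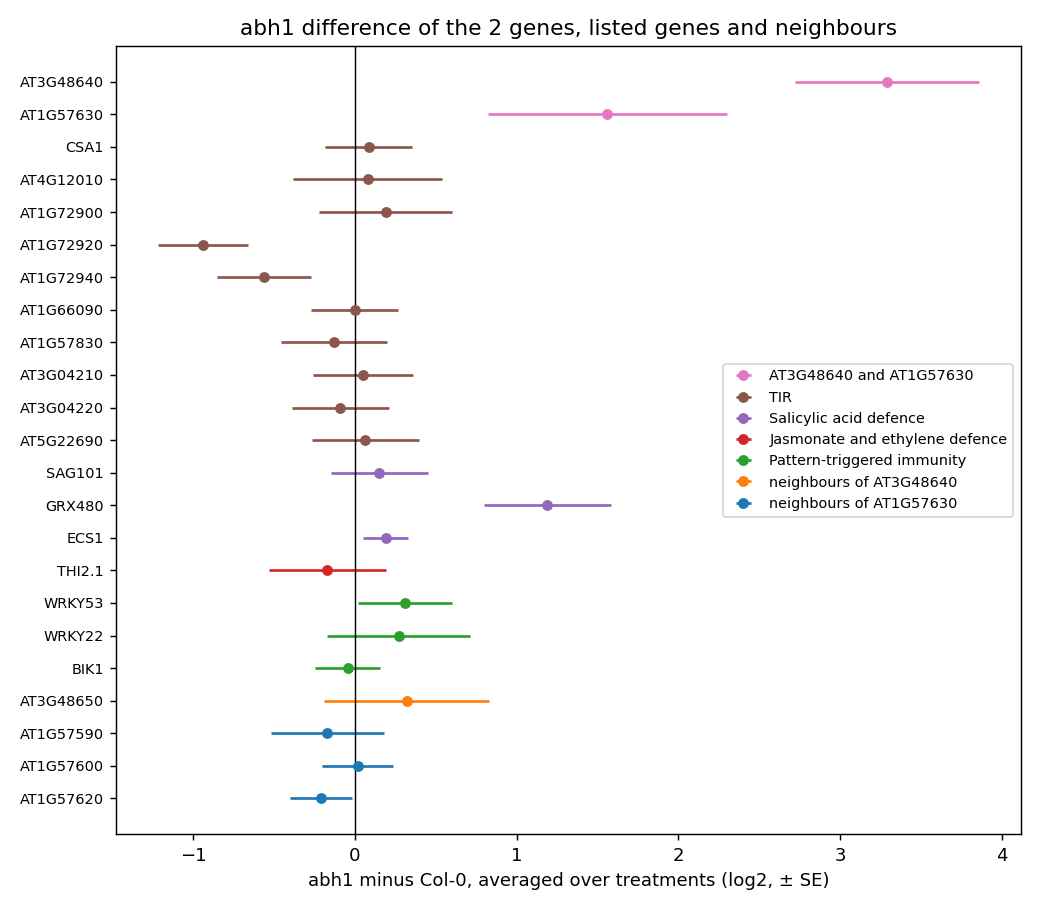
abh1 minus Col-0 averaged over treatments (log2, points, with bars of 1 SE) for AT3G48640, AT1G57630, the measured genes of 4 fixed lists and the chromosome neighbours that passed the signal filter. AT3G48640 at 3.29 and AT1G57630 at 1.56 lie right of all others shown, of which GRX480 is the nearest at 1.19.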

How the data were processed

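The authors deposited linear MAS5 signal, from Affymetrix Micro Array Suite 5.0 per the series text, with no settings stated there. All 8 arrays had 2% trimmed means of 500.04 to 500.05, so the signal was taken as already scaled and not normalised again. After adding the 10th percentile of all values, 9.38, log2 was taken. Control probe sets (64) were left out, and probe sets with a mean signal under 115.4, the 40th percentile, were not tested, which left 13652. Of 22810 probe sets, 13513 had 1 gene in the annotation, 503 several and 8794 were not listed and are unnamed here. Loci and gene order came from the RefSeq table of TAIR10.1.

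Limma 3.58.1 in R 4.3.3 was fitted to all 8 arrays with 4 group means (4 residual degrees of freedom) and an intensity trend. Two-sided p-values had Benjamini-Hochberg adjustment across the 13652 probe sets, with a threshold of 0.05. Nothing says that arrays of a group come from separately grown plants beyond the pooling. A p-value without the block therefore reflects only how far arrays of a group spread. With the replicate number as a block it reflects the spread left after the difference between numbers is taken out. The number of arrays limits the precision of both. Same-numbered arrays deviated from their group means together (r of 0.394 to 0.714 over the 6 pairs of groups, all above 0.1), so the replicate number was also used as a block. Each fit was also run on its own simulated data for the averaged abh1 comparison, with 13652 probe sets. Data for the fit without the block held independent noise and no replicate difference, unlike the real arrays. That fit recovered 18% of the log2 1 changes and 77% of the log2 2 changes (100 of each size, 3 false calls). Data for the fit with the block included a replicate difference, and 42% and 80% were recovered (7 false calls). The rates of the fits therefore cannot be compared with each other. The alternatives were the block, quantile normalization, median centring, offsets of 1 and 32, no filter, no intensity trend, the block with quantile normalization and each array left out.

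The genes, lists and tests were chosen with earlier results of these data known. Named genes are the 2 genes, the 10 most like each by Pearson's r among named genes kept, the 4 of each list with the smallest p for abh1, and the 5 nearest genes on each side. The lists came from general knowledge of the gene families. The search of promoter motifs was not run.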

Additional observations from a re-analysis of the deposited data

Results flagged for a closer look

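The ABA difference of both genes had opposite signs in the 2 genotypes in every pair of arrays. These differences share arrays with the abh1 difference for which the genes were chosen. For AT3G48640 ABA minus mock was log2 0.57 and 0.68 in Col-0 (replicates 1 and 2) and -0.42 and -0.40 in abh1. For AT1G57630 it was 1.01 and 1.79 in Col-0 and -0.51 and -0.055 in abh1, and the last value turned positive after quantile normalization (0.21) and median centring (0.20). The interaction tests this difference, and neither gene passed it (limma adjusted p = 1, range over the 16 alternatives 0.954 to 1 for AT3G48640 and 0.946 to 1 for AT1G57630).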

How the results depend on the processing

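Without the block and with all 8 arrays, 15 probe sets were called for ABA averaged over genotypes and 2 for abh1 averaged over treatments. For ABA the count was 315 with the replicate block, 493 with the block and quantile normalization, 48 with quantile normalization, 28 with an offset of 32, 1 with no signal filter, and 0 with median centring or with no intensity trend (986 and 1097 probe sets with an unadjusted p under 0.05). For abh1 it was 70 with the replicate block, 119 with the block and quantile normalization, and 1 each with quantile normalization, with no signal filter and with no intensity trend. With 1 array left out the counts ran from 0 to 891 for ABA, the highest without Col-0 ABA replicate 2, and from 0 to 7 for abh1, the highest without that array too. The interaction had 0 calls by limma under all 16 alternatives, with an unadjusted p under 0.05 for 24 to 722 probe sets (lowest without Col-0 mock replicate 2, highest without Col-0 ABA replicate 1). The cause of these shifts was not tested. Median centring moved the median ABA difference of all probe sets from log2 -0.08 to 0.06.

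Neither gene passed the ABA or interaction test under any alternative run (lowest adjusted p 0.114). The ABA average of AT3G48640 ran from -0.38 to 0.60 with 1 array left out, below 0 without Col-0 ABA replicate 1 (-0.092), Col-0 mock replicate 2 (-0.12), abh1 ABA replicate 1 or abh1 mock replicate 2 (-0.38 each). That of AT1G57630 ran from -0.01 to 1.12, below 0 without Col-0 mock replicate 2 or abh1 mock replicate 2 (-0.0065). The interaction ran from -2.02 to -0.053 for AT3G48640 and from -2.82 to -0.54 for AT1G57630, and the abh1 difference from 2.80 to 3.78 and from 0.99 to 2.13. Of the 10 genes most like AT3G48640, 2 stayed in the 10 after the replicate numbers were set to the same mean (replicate block), 6 with Spearman and 6 with quantile normalization; for AT1G57630 these were 5, 3 and 5.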

Other observations

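Apart from AT3G48640 and AT1G57630, 29 probe sets were called higher in abh1 by limma with the replicate block, 11 of them with 1 gene, and they were compared after their values had been seen. Of the 29, 5 (17.2%) were higher in ABA in both Col-0 pairs and lower in both abh1 pairs, against 1.84% of all probe sets kept. The named ones among them are AT2G43590, AT3G53980 and MSRB9. Of the 39 probe sets lower in abh1, 1 (2.56%) had that pattern. The mirror pattern, lower in ABA in Col-0 and higher in ABA in abh1, was not counted, so these shares cannot be compared. Replicate 1 exceeded replicate 2 in 20 of the 29 and in 16 of the 39, against 37.4% of all probe sets kept. No test was made of these counts, and the 29 were called on the same arrays.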
